A study of Mus musculus with 7 samples.

Results

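The genes described here encode the protein partners of nuclear myosin 1 (NM1) in chromatin, namely the subunits of the B-WICH complex, the related BAZ proteins and the acetyltransferases that the complex recruits. They were chosen by name and not by a rule on their values, though earlier results of these data were known. In the GENCODE M21 annotation, 10 mouse genes of the 46603 Ensembl genes in the count files carry the symbols Smarca5, Baz1a, Baz1b, Baz2a, Kat2a, Kat2b, Ddx21, Sf3b1, Ercc6 and Dek. All 10 passed the filter on low counts and were tested. Their RNA was compared between tumors grown from mouse embryonic fibroblasts (MEFs) that lack NM1 through CRISPR/Cas9 deletion (NM1 KO) and tumors grown from KO + NM1 cells, the same knock-out cells with tagged NM1 put back by a lentiviral vector and selected with neomycin as single clones. Both kinds of cells were injected into female nude mice aged 16 weeks, of the Balb/c background by the methods, with 5 mice in each group. The methods place the injection under the skin of the right flank, whereas the results of the paper name the mammary pads. The labels put the tumors at day 30, later than the period of monitoring in the methods. The labels describe a tumor of each condition cut into 4 pieces, each homogenized separately, of which 3 NM1 KO pieces and 4 KO + NM1 pieces gave libraries. The methods write of tumors, while the reporting summary of the paper writes of a single tumor of each kind, as the labels do. The p-values therefore measure how much pieces differ. By the labels and the reporting summary, all pieces of a condition came from the same tumor, and the p-values then cover no variation among animals.

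NM1 is an isoform of the motor protein encoded by Myo1c. In the B-WICH complex it is joined to the ATPase SNF2H (Smarca5) and the Williams syndrome transcription factor WSTF (Baz1b), and the complex slides nucleosomes and brings histone acetyltransferases to ribosomal and protein-coding genes. SNF2H also works with other BAZ proteins in separate complexes, which share the ATPase.

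Sequence before the start site is shown for 6 of the genes, because 5 of them gave the largest changes between the tumors and the sixth, Kat2b, is the paralog of Kat2a that was not called. The sequences are from RefSeq on GRCm38.p6, which held a promoter for 9 of the 10 members. Each is the exon-free stretch within 250 bases before the annotated start, 5′ to 3′ on the strand of the gene, with the letters CCAAT or GGGCGG, read on either strand, in capitals.
Smarca5, chr8:80739498-80739709, minus strand: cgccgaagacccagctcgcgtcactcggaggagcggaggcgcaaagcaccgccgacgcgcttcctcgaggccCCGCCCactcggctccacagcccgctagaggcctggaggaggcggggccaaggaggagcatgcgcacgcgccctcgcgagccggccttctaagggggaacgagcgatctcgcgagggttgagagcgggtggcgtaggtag
Baz1b, chr5:135187073-135187263, plus strand: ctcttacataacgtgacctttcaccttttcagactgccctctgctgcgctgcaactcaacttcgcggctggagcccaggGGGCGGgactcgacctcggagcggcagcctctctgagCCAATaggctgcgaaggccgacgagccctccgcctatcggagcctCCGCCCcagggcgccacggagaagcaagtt
Kat2a, chr11:100712468-100712717, minus strand: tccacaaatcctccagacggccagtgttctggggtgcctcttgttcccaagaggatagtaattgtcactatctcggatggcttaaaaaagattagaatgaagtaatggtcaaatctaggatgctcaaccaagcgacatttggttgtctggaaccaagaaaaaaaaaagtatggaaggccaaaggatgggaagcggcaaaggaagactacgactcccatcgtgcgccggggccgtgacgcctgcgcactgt
Kat2b, chr17:53566721-53566860, plus strand: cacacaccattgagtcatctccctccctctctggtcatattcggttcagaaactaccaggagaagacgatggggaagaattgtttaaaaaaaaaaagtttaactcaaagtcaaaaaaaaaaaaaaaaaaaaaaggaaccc
Ddx21, chr10:62602299-62602349, minus strand: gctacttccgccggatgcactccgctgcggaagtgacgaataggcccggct
Dek, chr13:47106222-47106418, minus strand: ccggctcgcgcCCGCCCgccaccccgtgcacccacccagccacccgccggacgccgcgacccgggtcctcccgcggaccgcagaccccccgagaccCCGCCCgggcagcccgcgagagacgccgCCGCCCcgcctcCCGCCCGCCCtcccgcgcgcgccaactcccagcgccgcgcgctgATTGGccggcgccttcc

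The letters GGGCGG, the core of the GC box, were present within the 250 bases in 6 of the 9 members, against 32.7% of the 32851 RefSeq promoters. Members were counted at their first start site, whereas a gene can have several of the 32851 promoters. The second start site of Kat2b had no match to GGGCGG or CCAAT. In Dek 1 pair of its matches overlaps. The letters were found in Smarca5, Baz1b, Baz2a, Dek, Sf3b1 and Ercc6 and not in Kat2a, Kat2b or Ddx21, so they occurred in genes that were called and in genes that were not. CCAAT was present in 3 of the 9 members (Baz1b, Dek and Kat2b, in the last outside the stretch printed), against 33.8% of all promoters, and the E-box letters CACGTG in Ercc6 alone, against 6.02%. The letters TTTGGCGC, TTTCGCGC, TTTCCCGC and ATGGCGGC and the palindrome of the NRF1 element, also read on both strands, were in none of the 9 windows, and each was in at most 1.03% of all promoters.

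Total gene counts were 24088309 to 28326568 per library. The libraries were scaled with the TMM method of edgeR to CPM, counts relative to the size of the library, and 16887 genes were compared with its quasi-likelihood test, with Benjamini-Hochberg adjustment over all of them and a call at an adjusted p under 0.05. Across all genes, which are not independent replicates, log2 CPM of KO + NM1 piece 01 correlated with that of the other KO + NM1 pieces at 0.855 to 0.861, while the NM1 KO pieces correlated among themselves at 0.966 to 0.977. Piece 01 therefore stands apart, and the members' fold changes, ratios and levels are given also without it. The injected cells and the host are both mouse, so the counts of a gene do not separate RNA of the injected cells from that of the host. Myo1c, the targeted gene, had 313, 289 and 306 CPM in the NM1 KO pieces and 438, 408, 406 and 382 CPM in the KO + NM1 pieces, and its counts do not separate NM1 from the other isoforms. It was lower in NM1 KO (log2 fold change -0.43, standard error 0.13, adjusted p = 0.031 from edgeR), but not without NM1 KO piece 01, 02 or 03 (adjusted p = 0.0508, 0.0720 and 0.0647) or KO + NM1 piece 02 (adjusted p = 0.0620), where its log2 fold change was -0.57, -0.52, -0.56 and -0.45. The call was also lost with library size as the sole scaling (-0.25, adjusted p = 0.297 from edgeR). Mitochondrially encoded genes took 1.81% to 2.14% of the counts in the NM1 KO pieces and 5.11% to 18.5% in the KO + NM1 pieces, and leaving them out changed no call among the members.

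Of the 10 members, 6 were higher in the NM1 KO pieces and 0 were lower, where 25.7% of all tested genes were called higher and 24.5% lower. The 6 were Smarca5, Baz1b, Baz2a, Kat2a, Ddx21 and Dek, and in each of them the lowest NM1 KO piece exceeded the highest KO + NM1 piece, a pattern found in 30.5% of the tested genes. All but Baz2a also passed a 2-fold change, as did 17.1% of the tested genes in that direction. The Wald test of DESeq2 called 6 members higher and 0 lower, against 26.4% and 30.7% of the genes, and limma's voom with quality weights called 9 higher and 0 lower, against 41.7% and 35.2%. Tested against a 2-fold change with glmTreat of edgeR, 3 members were higher (Smarca5, Kat2a and Ddx21), against 10.1% of the genes. By edgeR 0 members were lower even at an unadjusted p under 0.05. The mean CPM was above that of the KO + NM1 pieces in all 10 members, and the median log2 fold change was 0.89, where that of all tested genes was -0.0017. Without KO + NM1 piece 01, 8 members were called higher, the further ones being Baz1a and Sf3b1, and 35.8% of the tested genes were.

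**Figure D1:**
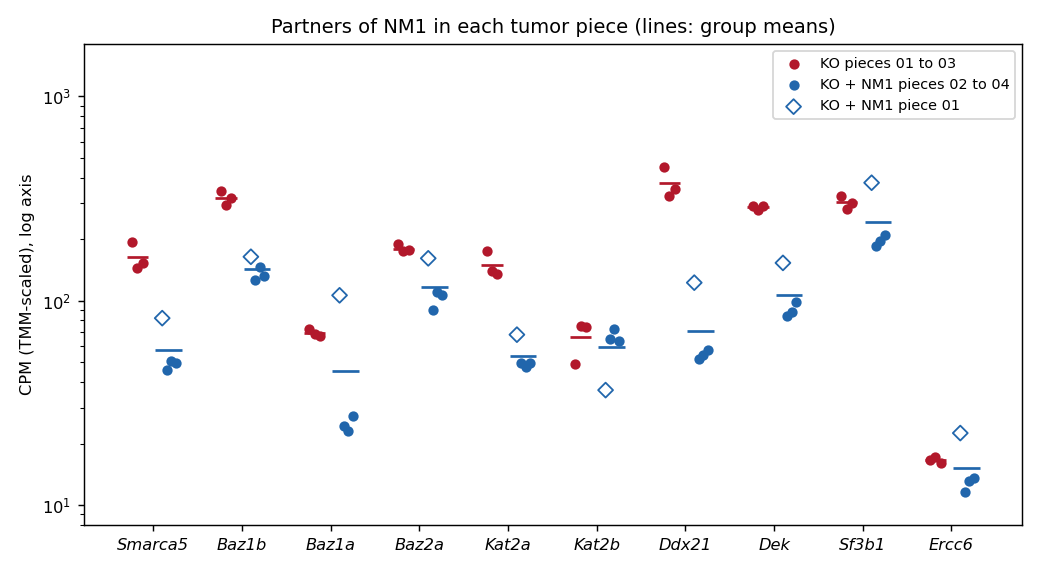
CPM of each of the 10 members (log axis) in the 3 NM1 KO and 4 KO + NM1 pieces, with KO + NM1 piece 01 drawn as a diamond and group means as lines. The NM1 KO pieces sit above all KO + NM1 pieces in Smarca5, Baz1b, Baz2a, Kat2a, Ddx21 and Dek. Piece 01 is the highest KO + NM1 piece in 9 of the 10 genes, and the share of all tested genes in which it is highest is not given here.

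Smarca5 (ENSMUSG00000031715, chr8:80698507-80739497) encodes SNF2H, the ATPase that moves nucleosomes in the ISWI complexes. It had 193, 145 and 152 CPM in the NM1 KO pieces and 82.1, 46.0, 50.8 and 49.8 CPM in the KO + NM1 pieces. The groups did not overlap, with NM1 KO piece 01 the highest and KO + NM1 piece 01 the highest of its group. The log2 fold change was 1.51 (standard error 0.24, adjusted p = 0.00229 from edgeR), a 2.86-fold difference, and Smarca5 stayed past the threshold in all 18 alternative settings. Smarca1, which encodes the related ATPase SNF2L, had a log2 fold change of -0.32 and was not called (adjusted p = 0.602 from edgeR).

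Baz1b (ENSMUSG00000002748, chr5:135187264-135246129) encodes WSTF, the subunit that pairs with SNF2H in B-WICH and also phosphorylates histone H2A.X. It had 343, 293 and 316 CPM in the NM1 KO pieces and 164, 127, 146 and 132 CPM in the KO + NM1 pieces. No value of one group lay within the other, and the log2 fold change was 1.16 (standard error 0.15, adjusted p = 0.00113 from edgeR), a 2.23-fold difference. KO + NM1 piece 01 was 1.21 times the mean of the other KO + NM1 pieces here, the smallest rise of piece 01 among the 9 members in which it was highest.

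Baz1a (ENSMUSG00000035021, chr12:54892989-55014348) encodes ACF1, which pairs with SNF2H in the ACF and CHRAC complexes that space nucleosomes. It had 72.7, 68.7 and 67.0 CPM in the NM1 KO pieces and 106, 24.3, 23.1 and 27.3 CPM in the KO + NM1 pieces. Piece 01 of KO + NM1 thus exceeded all NM1 KO pieces and was 4.26 times the mean of the other KO + NM1 pieces, where the median of this ratio over all tested genes was 0.989. With all 7 pieces the log2 fold change was 0.62 (95% interval -0.74 to 1.98, adjusted p = 0.4 from edgeR), and without piece 01 it was 1.35 (adjusted p = 2.62e-05).

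Baz2a (ENSMUSG00000040054, chr10:128091577-128129303) encodes TIP5, the large subunit of the nucleolar remodeling complex NoRC, which silences ribosomal RNA genes. It had 189, 174 and 177 CPM in the NM1 KO pieces and 161, 90.4, 110 and 107 CPM in the KO + NM1 pieces. The groups did not overlap, but KO + NM1 piece 01 came close to the NM1 KO pieces. The log2 fold change was 0.62 (standard error 0.21, adjusted p = 0.0418 from edgeR), and Baz2a kept this call in 5 of 18 alternative settings. The adjusted p was 0.193, 0.155 and 0.164 without NM1 KO piece 01, 02 or 03, it was 0.0970, 0.0938 and 0.104 without KO + NM1 piece 02, 03 or 04, and it was 0.00112 without KO + NM1 piece 01. Baz2b, its paralog, fell by 0.86 on the log2 scale (standard error 0.15, adjusted p = 0.00375 from edgeR).

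Kat2a (ENSMUSG00000020918, chr11:100704746-100712465) encodes GCN5, a lysine acetyltransferase of the SAGA and ATAC complexes. It had 175, 140 and 135 CPM in the NM1 KO pieces and 68.2, 49.4, 47.4 and 49.5 CPM in the KO + NM1 pieces, so the groups did not overlap. The log2 fold change was 1.48 (standard error 0.18, adjusted p = 0.00103 from edgeR), a 2.80-fold difference, and it was past the threshold in all 18 alternative settings.

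Kat2b (ENSMUSG00000000708, chr17:53566861-53672720) encodes PCAF, the other acetyltransferase of this pair. It had 49.0, 74.9 and 74.6 CPM in the NM1 KO pieces and 36.5, 65.1, 72.3 and 63.7 CPM in the KO + NM1 pieces. The groups overlapped, and piece 01 was the lowest in each, unlike in the other members, in which KO + NM1 piece 01 was the highest of its group. The log2 fold change was 0.16 (95% interval -0.48 to 0.79, adjusted p = 0.658 from edgeR), and it turned to -0.15 without KO + NM1 piece 01, to -0.063 and -0.054 without NM1 KO piece 02 or 03 and to -0.0042 with upper-quartile scaling.

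Ddx21 (ENSMUSG00000020075, chr10:62580251-62602281) encodes a nucleolar RNA helicase that acts in transcription and processing of ribosomal RNA. It had 451, 323 and 353 CPM in the NM1 KO pieces and 122, 52.0, 54.0 and 57.1 CPM in the KO + NM1 pieces. The lowest NM1 KO piece was well above the highest KO + NM1 piece, which was piece 01. The log2 fold change was 2.40 (standard error 0.34, adjusted p = 0.00176 from edgeR), a 5.27-fold difference and the largest among the 10 members. Ddx50, the neighbouring paralog, had a log2 fold change of 0.31 and was not called (adjusted p = 0.0628 from edgeR). Its groups still did not overlap, with 98.4 to 111 CPM in NM1 KO and 76.4 to 88.5 CPM in KO + NM1. Such a pattern was found in 30.5% of the tested genes. Mybbp1a, a nucleolar protein of B-WICH outside the member list, rose by 2.13 (standard error 0.25, adjusted p = 0.00094 from edgeR). It had 689, 470 and 483 CPM against 173, 105, 102 and 120 CPM.

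Dek (ENSMUSG00000021377, chr13:47084775-47106201) encodes a chromatin-binding protein that acts as a histone chaperone and is known as an oncoprotein. It had 291, 278 and 289 CPM in the NM1 KO pieces and 153, 84.0, 88.4 and 98.9 CPM in the KO + NM1 pieces, so the groups did not overlap. Between the conditions Dek differed by 1.43 on the log2 scale (standard error 0.23, adjusted p = 0.00248 from edgeR). Of its exon bases, 505 are shared with Kdm1b on the opposite strand, and the strand option of the counting is not given in the sources used here. On their own strand Smarca5 shares 281 exon bases with Gm45872, Baz1a 346 with Gm20403 and Baz1b 121 with Gm25315, and the other members share none.

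Sf3b1 (ENSMUSG00000025982, chr1:54985169-55027481) encodes the largest subunit of the SF3b splicing complex. It had 326, 281 and 301 CPM in the NM1 KO pieces and 377, 185, 195 and 210 CPM in the KO + NM1 pieces. Piece 01 of KO + NM1 was above all NM1 KO pieces, and the other KO + NM1 pieces were all below them. With all pieces the log2 fold change was 0.32 (95% interval -0.33 to 0.98, adjusted p = 0.362 from edgeR) and 0.49 without piece 01 (adjusted p = 0.00445).

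Ercc6 (ENSMUSG00000054051, chr14:32513521-32580990) encodes CSB, an ATPase of the transcription-coupled branch of nucleotide excision repair. It had 16.6, 17.1 and 16.1 CPM in the NM1 KO pieces and 22.5, 11.6, 13.1 and 13.6 CPM in the KO + NM1 pieces. The groups overlapped through piece 01 alone. Its log2 fold change was 0.13 (95% interval -0.49 to 0.74, adjusted p = 0.711 from edgeR), which turned to -0.025 with upper-quartile scaling and to -0.013 without NM1 KO piece 02. Without KO + NM1 piece 01 it was 0.25 (adjusted p = 0.130 from edgeR). Ercc6l, which encodes the mitotic translocase PICH, rose by 4.26 (standard error 0.52, adjusted p = 0.00129 from edgeR), and Ercc6l2 rose by 0.43 (adjusted p = 0.041).

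**Figure D2:**
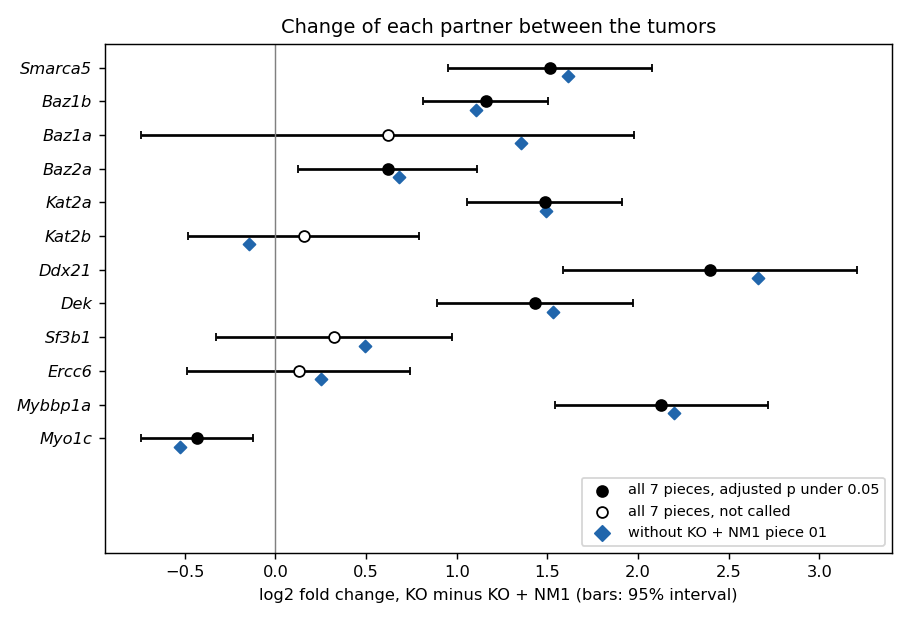
Log2 fold change of each member, of Mybbp1a and of Myo1c, NM1 KO minus KO + NM1, with 95% intervals. Filled circles passed an adjusted p under 0.05 in edgeR, open circles did not, and diamonds give the value without KO + NM1 piece 01, which is 1.35 in place of 0.62 for Baz1a and -0.15 in place of 0.16 for Kat2b.

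Levels were compared between genes as CPM per kilobase of exon. In the NM1 KO pieces the order was Dek (89.8), Ddx21 (72.6), Kat2a (43.1), Sf3b1 (26.6), Baz1b (23.2), Smarca5 (21), Baz2a (16.8), Kat2b (13.6), Baz1a (9.70) and Ercc6 (1.29). Sf3b1 and Baz1b, Baz1b and Smarca5, and Baz2a and Kat2b differed by less than the sum of their SDs, and the other neighbours by more. In the KO + NM1 pieces the order was Dek (33.3), Sf3b1 (21.3), Kat2a (15.4), Ddx21 (13.8), Kat2b (12.2), Baz2a (10.9), Baz1b (10.4), Smarca5 (7.35), Baz1a (6.32) and Ercc6 (1.18), and no neighbours differed by more than the sum of their SDs. Without KO + NM1 piece 01, an alternative chosen after seeing the data, the order was Dek (28.4), Sf3b1 (17.3), Kat2a (14.0), Kat2b (13.8), Ddx21 (10.5), Baz1b (9.87), Baz2a (9.56), Smarca5 (6.28), Baz1a (3.48) and Ercc6 (0.994). In this order Kat2a and Kat2b, Ddx21 and Baz1b, and Baz1b and Baz2a differed by less than the sum of their SDs, and the other neighbours by more. Ddx21 stood at rank 2 in NM1 KO and, in KO + NM1, at rank 4 with piece 01 and at rank 5 without it.

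Ratios of paired genes within a piece do not depend on how libraries are scaled. Among the 6 ratios, compared by a two-sided exact permutation test, Baz2a to Baz2b had the lowest p. On the log2 scale per kilobase it was 3.10, 2.90 and 3.01 in the NM1 KO pieces and 1.70, 1.30, 1.65 and 1.39 in the KO + NM1 pieces, a 2.82-fold higher ratio in NM1 KO (exact permutation p = 0.0286, the smallest that 3 against 4 pieces allow, adjusted p = 0.114). Baz2b took 4.04% ± 0.331 (SD, n = 3) of the summed Baz1a, Baz1b, Baz2a and Baz2b CPM per kilobase in NM1 KO and 12.5% ± 1.93 (SD, n = 4) in KO + NM1, or 13.3% ± 1.15 (SD, n = 3) there without piece 01, which was also chosen after seeing the data.

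The ratio of Ddx21 to Ddx50 was 4.51-fold and that of Smarca5 to Smarca1 3.21-fold higher in NM1 KO (each exact permutation p = 0.0571, adjusted p = 0.114). In both the groups did not overlap, although for Smarca5 to Smarca1 the log2 ratio of KO + NM1 piece 01 was 5.43, as was that of NM1 KO piece 02 to 3 digits, while the other KO + NM1 pieces had 2.62 to 3.75. This ratio rests on few Smarca1 counts, 90, 76 and 80 in the NM1 KO pieces and 41, 74, 60 and 155 in the KO + NM1 pieces. The ratio of Kat2a to Kat2b was 2.32, 1.38 and 1.34 on the log2 scale in the NM1 KO pieces and 1.38, 0.088, -0.13 and 0.12 in the KO + NM1 pieces, so the groups overlapped through piece 01 (exact permutation p = 0.114, adjusted p = 0.137). Smarca5 to Baz1b, the ATPase against its B-WICH partner, differed 1.30-fold with overlap (exact permutation p = 0.114, adjusted p = 0.137), and Baz1a to Baz1b by -0.20 on the log2 scale (exact permutation p = 1). For Baz1a to Baz1b the log2 ratio was -1.31 to -1.16 in the NM1 KO pieces, 0.31 in KO + NM1 piece 01 and -1.73 to -1.35 in the other KO + NM1 pieces. After adjustment over the 6 ratios none passed 0.05, and 1 did before it. No ratio could have passed alone, because several must reach the smallest exact permutation p, 0.0286, for an adjusted p under 0.05. Without KO + NM1 piece 01 the NM1 KO pieces lay above the other KO + NM1 pieces in all 6 ratios. The differences on the log2 scale were then 1.66 for Kat2a to Kat2b, 0.25 for Baz1a to Baz1b, which turned direction, 1.56 for Baz2a to Baz2b, 2.21 for Smarca5 to Smarca1, 0.50 for Smarca5 to Baz1b and 2.51 for Ddx21 to Ddx50 (each exact permutation p = 0.1, the smallest that 3 against 3 pieces allow).

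**Figure D3:**
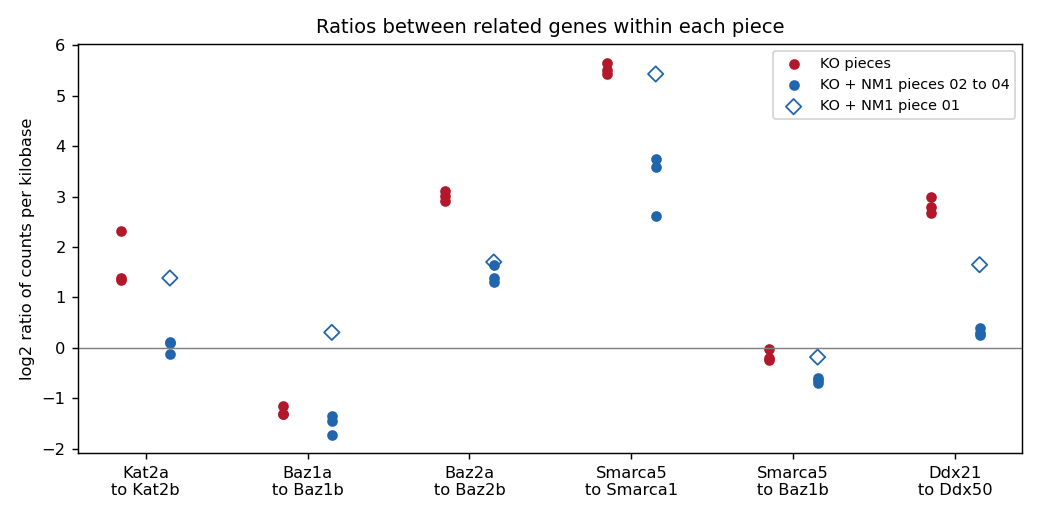
Log2 ratio of the 6 gene pairs per kilobase in each piece, with KO + NM1 piece 01 as a diamond. The NM1 KO pieces lie above all KO + NM1 pieces for Baz2a to Baz2b, Ddx21 to Ddx50 and Smarca5 to Smarca1.

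Other subunits of the complexes in which the members work were counted in the same fit, beside the 25.7% of tested genes called higher and the 24.5% called lower. Of the 9 other SF3A and SF3B subunits, the splicing partners of Sf3b1, 7 were higher and 0 lower, among them Sf3b3 (log2 fold change 1.81, standard error 0.30, adjusted p = 0.00298 from edgeR) and Phf5a (1.25, adjusted p = 0.00112). Of 22 tested SAGA and ATAC subunits, the complexes of Kat2a and Kat2b, 10 were higher and 0 lower (2 lower by DESeq2 and 3 by voom), with Tada2a (1.64) and the deubiquitinase Usp22 (1.31) the largest rises. Of 9 other ISWI subunits, 2 were higher, the histone-binding Rbbp7 (1.30) and the NURF subunit Bptf (1.00), and 2 were lower, Cecr2 (-2.17) and Baz2b, where voom, which called 41.7% of all genes higher, called 5 higher and 2 lower. Of the 9 repair partners of CSB, 1 was higher, the helicase gene Ercc3 (0.68; 3 higher by voom), and 0 were lower (2 at an unadjusted p under 0.05, 3 by DESeq2 and 4 by voom), with a median log2 fold change of -0.12.

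Other remodelers and histone-modifying enzymes were counted in the same way. Of 21 tested SWI/SNF subunits, 11 were higher, with Smarcc1 (1.64) and Actl6a (1.44) the largest, and 2 were lower, the ATPase Smarca2 (-1.96, adjusted p = 0.000384 from edgeR) and Arid1b (-0.50), where voom called 12 higher and 5 lower. Of 14 INO80 and SRCAP genes, 8 were higher, including the AAA ATPase Ruvbl1 (1.58), and 1 was lower, Actr8 (-0.81). Of 9 CHD remodelers, 3 were higher, with Chd1 (1.49) and Chd9 (0.95) the largest, and 0 lower, while voom called 8 higher and 0 lower. Of 10 SET1 subunits, which methylate histone H3, 6 were higher, with Hcfc1 (1.35) and Ash2l (1.14) the largest. The 1 that was lower, Setd1b (-0.83, adjusted p = 0.0293 from edgeR), encodes a catalytic subunit, Set1B, whose recruitment the paper describes as dependent on NM1. Setd1a, also in this list, was called neither way. Of 8 other histone acetyltransferases, 4 were higher, with Hat1 (1.89) and Ep300 (1.21) the largest, and 2 were lower, Kat8 (-0.71) and Kat6b (-0.65).

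**Figure D4:**
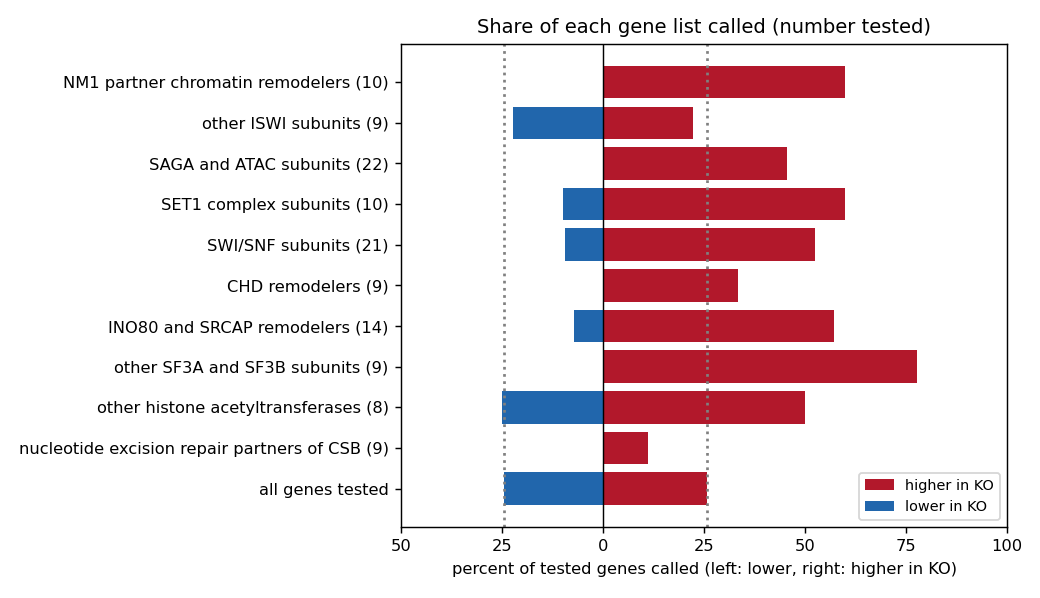
Share of the tested genes called higher and lower in NM1 KO, in percent, for the members and each list of related complexes. The SF3A and SF3B subunits (7 of 9) have the highest share called higher, followed by the members and the SET1 subunits (each 6 of 10), and all tested genes stand at 25.7% higher and 24.5% lower.

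The tumors also differed in markers of other cell types, whose part in the members' values was not tested. In these bulk samples, fewer cells of a type and less RNA per cell cannot be told apart. All 10 markers of dividing cells were higher in NM1 KO, with summed CPM of 1885 to 2535 against 20.8 to 93.7, and within each condition piece 01 had the highest sum. All 10 skeletal muscle markers were higher, with sums of 2317 to 19277 against 9.19 to 27.7, and all 10 white adipocyte markers were lower, with sums of 137 to 332 against 5171 to 38555. Piece 01 of each condition had the lowest sums of white adipocyte, brown adipocyte, endothelial, erythroid and mammary epithelium markers. The muscle sum was lowest in NM1 KO piece 01 but, in KO + NM1, in piece 03. Macrophage and B and plasma cell sums were lowest in NM1 KO piece 01 but highest in KO + NM1 piece 01. Fibroblast and keratinocyte sums were lowest in KO + NM1 piece 01 but, in NM1 KO, in pieces 02 and 03, respectively. Of 8 macrophage markers 7 were higher (3660 to 4178 against 648 to 2547), and of the fibroblast markers 5 of 10 were lower and 0 higher (1 higher by DESeq2 and by voom, sums of 7228 to 13037 against 2877 to 13120). All 6 endothelial and all 5 erythroid markers were lower, as were 4 of 6 brown adipocyte and 3 of 5 tested mammary epithelium markers, while none of 5 B and plasma cell and 4 tested keratinocyte markers was called either way by edgeR or DESeq2, and voom called 3 of the former higher and 1 of the latter lower.

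KO + NM1 piece 01 differed from the other KO + NM1 pieces in these markers as well. Its B and plasma cell markers summed to 3563 CPM, where the other 6 pieces had 3.08 to 38.4, and its white adipocyte markers were at 5171, where the other KO + NM1 pieces had 28354 to 38555. Over the mean of the other KO + NM1 pieces, piece 01 had 2.25 times the Ddx21, 1.92 times the Sf3b1, 1.76 times the Ercc6, 1.69 times the Dek, 1.68 times the Smarca5, 1.57 times the Baz2a and 1.40 times the Kat2a CPM, and 0.545 times that of Kat2b. Against KO + NM1 pieces 02 to 04 alone, the NM1 KO mean was 6.92-fold for Ddx21, 3.34-fold for Smarca5, 3.16-fold for Dek, 3.08-fold for Kat2a, 2.79-fold for Baz1a and 2.35-fold for Baz1b. Refitted without piece 01, the log2 fold changes were 2.66 for Ddx21, 1.61 for Smarca5, 1.53 for Dek, 1.49 for Kat2a, 1.11 for Baz1b and 0.68 for Baz2a, all past the threshold.

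**Figure D5:**
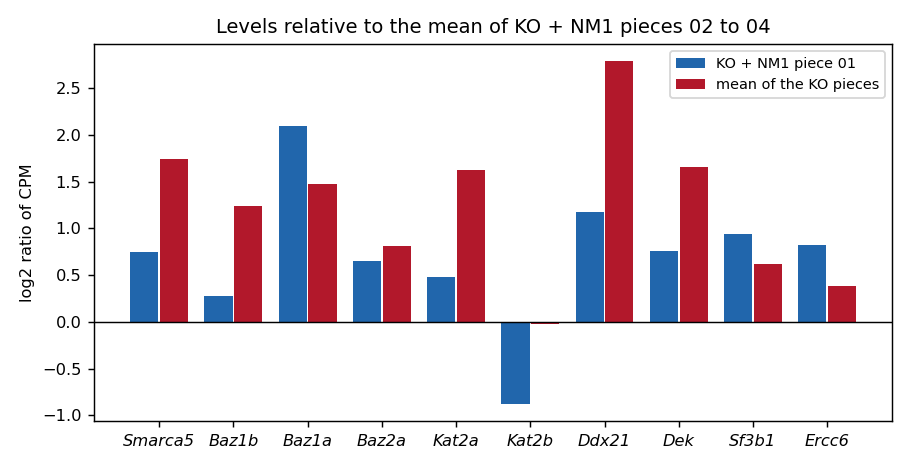
CPM of each member in KO + NM1 piece 01 and the mean of the 3 NM1 KO pieces, each over the mean of KO + NM1 pieces 02 to 04, as a log2 ratio. Piece 01 is above the NM1 KO mean for Baz1a, Sf3b1 and Ercc6 and lies below 0 for Kat2b.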

How the data were processed

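Per the labels, the authors' tools were Trimmomatic 0.36 for trimming, HISAT2 2.0.4 for alignment to GRCm38, SAMtools 0.1.19 for sorting and HTSeq for counting per gene. The deposited values are raw counts of reads, whole numbers without normalization, for 46603 Ensembl genes in 7 libraries. The annotation release and strand option of the counting are not given in the sources used here. Symbols and exon lengths came from GENCODE M21, and 46091 genes had a symbol.

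Counts were analysed in R 4.3.3 with edgeR 4.0.16. Genes were kept by filterByExpr with a minimum count of 10, scaled by TMM and compared, NM1 KO minus KO + NM1, by the quasi-likelihood test with Benjamini-Hochberg adjustment over the 16887 genes kept. Standard errors used edgeR's moderated dispersion and fitted information, and the 95% intervals from the t distribution with the residual degrees of freedom of edgeR. Pieces of a condition were checked for repeated libraries (chi-square of 35.2 to 687 per degree of freedom, genes of 20 or more counts in the pair), and none repeated another. Ratios were compared by two-sided exact permutation tests over the 35 ways to split the libraries.

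Named genes are the members, Myo1c, Mybbp1a, the nearest paralogs, up to 2 called genes with the largest rise and fall in each list of related complexes (mean CPM of 5 or more), and the 5 genes closest to Smarca5. The members and lists were chosen with earlier results of these data known. Alternatives were DESeq2 size factors, upper-quartile scaling, library size alone, mitochondrially encoded genes left out, an open filter and a strict filter on low counts, DESeq2 1.42.0, voom with quality weights in limma 3.58.1, a 2-fold threshold, glmTreat, the piece number as a block and leaving out single libraries. The gene test was run on simulated data first.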

Additional observations from a re-analysis of the deposited data

Results flagged for a closer look

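In the 4 KO + NM1 pieces the gap between the most distant piece and its nearest neighbour, as a share of the whole range, was checked for 17 values, and 6 of them passed Dixon's critical value at the 95% level for 4 samples. Chance flags about 1 in 20 groups, and the values are not independent, since they share the libraries. In all 6 the distant piece was KO + NM1 piece 01. On the log2 CPM scale the share was 0.8293 for Smarca5, just past the critical value, 0.890 for Baz1a, 0.882 for Kat2a and 0.891 for Ddx21, and for the log2 ratios it was 0.839 for Kat2a to Kat2b and 0.902 for Ddx21 to Ddx50. In each of these the other KO + NM1 pieces lay close together and piece 01 lay above them, as it did for Baz1a, where it had 106 CPM and they had 23.1 to 27.3 CPM.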

How the results depend on the processing

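Smarca5, Kat2a and Ddx21 kept their direction and their call in all 18 alternatives, with log2 fold changes of 1.27 to 1.67, 1.25 to 1.65 and 2.13 to 2.70, and Baz1b and Dek lost theirs only with glmTreat against a 2-fold change (adjusted p = 0.173 and 0.0618 from edgeR). The number of members called higher was 6, fell to 3 with glmTreat and was 5 to 8 with a library left out, where 16.7% to 35.8% of all tested genes were called higher. Of all genes, 4345 were called higher and 4132 lower; voom gave 7038 higher, the 2-fold threshold 2882 higher, glmTreat 1707 higher and 2074 lower, and leaving out a library 2910 to 5957 higher and 3226 to 5980 lower. There was no sign that the piece numbers pair the samples, though the check cannot exclude it. Same-numbered pieces deviated together with correlations of 0.080, 0.10 and -0.017, within the -0.12 to 0.11 of differently numbered pieces. With the piece number as a replicate block 5 members were called higher, against 17.9% of all genes, 3019 genes were called higher and 2680 lower, and Baz2a and Myo1c were not called (adjusted p = 0.0942 and 0.126 from edgeR). Reversals occurred in members that were not called, namely Kat2b (-0.0042 with upper-quartile scaling and -0.15 to -0.054 with NM1 KO piece 02 or 03 or KO + NM1 piece 01 left out) and Ercc6 (-0.025 with upper-quartile scaling and -0.013 without NM1 KO piece 02), and the cause was not tested. voom also called Baz1a, Sf3b1 and Ercc6. The median log2 fold change of all genes moved to -0.16 with upper-quartile scaling and to 0.17 with library size alone, which turned the median of the repair partners of CSB to 0.079. With a library left out the ratio tests have 6 pieces and cannot pass 0.05, and the difference in the ratio of Baz1a to Baz1b ran from -0.43 without KO + NM1 piece 03 to 0.25 without KO + NM1 piece 01, the only reversal among the ratios.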

Other observations

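Over the 7 libraries, the genes whose centred log2 CPM differed least from that of Smarca5 were Thada, Nhlrc2, Chd1, Scaf11 and G3bp1, with root mean square differences of 0.048, 0.055, 0.057, 0.064 and 0.077 among the 12264 genes searched. Among the members, Kat2a (0.11) and Dek (0.12) were closest to Smarca5, followed by Baz1b (0.25), and Kat2b was the most distant (0.91). Chd1, a remodeler that reads methylated histone H3, averaged 106 ± 16.2 CPM over the NM1 KO pieces (SD, n = 3), against 37.7 ± 13.3 CPM over those of KO + NM1 (SD, n = 4).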
